A study of Mus musculus with 2 samples.

Results

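The genes described here are 8 genes of iron and heme handling, Slc40a1, Hmox1, Blvrb, Fth1, Ftl1, Slc11a1, Tfrc and Ncoa4, chosen by name for their roles from the 16819 gene symbols of the gene expression matrix. All 8 had at least 1 UMI (unique molecular identifier, a tag that counts each captured RNA molecule once) in that matrix. CD45+ DAPI− cells, the living immune cells, were sorted from the dorsal root ganglia (DRG) of naive WT BALB/cAnNRj mice, 3 males and 3 females, after perfusion and enzymatic digestion of on average 40 pooled ganglia from cervical to lumbar levels. Hashtag antibodies marked the mouse of each cell, and all cells ran in 1 lane of a 10x 3′ assay. The matrix of 2668 cells held cells of the 3 male mice, and 1073 cells of the 3 female mice were recovered from the larger deposited matrix as a second group of animals. No mouse was treated, so the comparisons are between kinds of cells within the same animals. BALB/c mice are known to carry a Slc11a1 allele whose protein does not function, and all animals here share it.

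Macrophages that clear dying red cells split heme from hemoglobin. Heme oxygenase opens the heme ring and releases its iron, biliverdin is reduced to bilirubin, and the iron is stored in ferritin or leaves the cell through ferroportin, the only known iron exporter of mammals. Cd163 is the scavenger receptor that takes up hemoglobin bound to haptoglobin, and the question addressed was whether the iron and heme genes followed Cd163, Fcrls and Ccr2, the genes that mark the macrophage subsets of the DRG, from cell to cell.

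Several of these genes are also controlled after transcription, which RNA counts do not show. When iron is low, iron regulatory proteins bind hairpins known as iron-responsive elements, which block translation from the 5′ UTR of ferritin and ferroportin mRNA and protect Tfrc mRNA from decay at its 3′ UTR. The hairpins are shown because they set the export and storage genes apart from the uptake gene Tfrc. The search found 1 match in the 5′ UTR of each of the former and 4 in the 3′ UTR of Tfrc. The search was for a C, 5 bases, the loop CAGTGN and 5 bases that pair with the first 5 (G with U allowed), on the sense strand of the UTRs of GENCODE M21 (GRCm38, the assembly known as mm10). Such a match was in the 5′ UTR of 31 of 20597 genes (0.151%) and in the 3′ UTR of 129 of 20995 genes (0.614%). The loop is in capitals, and none was found by this search in the UTRs of Hmox1, Blvrb, Slc11a1 or Ncoa4.
Fth1, 5′ UTR, chr19:9982732-9982760, plus strand: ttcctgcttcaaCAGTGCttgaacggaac
Ftl1, 5′ UTR, chr7:45459779-45459807, minus strand: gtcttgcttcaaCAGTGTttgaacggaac
Slc40a1, 5′ UTR, chr1:45925465-45925493, minus strand: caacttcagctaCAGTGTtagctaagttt
Tfrc, 3′ UTR, chr16:32631219-32631247, plus strand: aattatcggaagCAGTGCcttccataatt
Tfrc, 3′ UTR, chr16:32631598-32631626, plus strand: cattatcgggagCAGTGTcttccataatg
Tfrc, 3′ UTR, chr16:32631663-32631691, plus strand: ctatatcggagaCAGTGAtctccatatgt
Tfrc, 3′ UTR, chr16:32631710-32631738, plus strand: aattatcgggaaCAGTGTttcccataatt

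Cells were taken as macrophages when C1qa, C1qb and C1qc together made up at least 0.5% of their UMIs, which gave 1484 of the 2668 cells (183, 519 and 782 in mouse 1, 2 and 3). Marker genes that include none of the 8 gave 553 neutrophils, 162 B cells, 139 monocytes, 123 T and NK cells and 81 DCs, and 102 cells stayed unassigned. The 3 male mice held 4239463 to 13508078 UMIs, and their median cell held 7336.5 to 9137. In macrophages, 7 of 7 macrophage markers were seen in at least 20% of cells, but so were 6 of 10 neutrophil markers, which made up 0.0932% to 0.241% of macrophage UMIs. The list of hemoglobin genes held 36 UMIs in all macrophages together. Levels are given as UMIs of a gene per 1000000 UMIs of the cells of 1 mouse (CPM), as the mean ± SD over 3 mice unless stated, and fold changes are log2 values from edgeR's quasi-likelihood test on UMIs summed per mouse with TMM scaling, called at an adjusted p under 0.05. All mice shared a lane, so the SD holds no difference between lanes. It holds counting error together with the spread between animals, most of all where a group has few UMIs. RNA free in the lane can add UMIs to any cell.

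The DRG macrophages carried most of the Hmox1, Blvrb and Slc11a1 RNA and as a whole type had the highest ferritin levels by CPM. On the same scale, ferroportin and Ncoa4 were highest in neutrophils and Tfrc in B cells. Macrophages were 55.6% of the cells and held 89.9% of the Hmox1 UMIs, 90.7% of the Blvrb UMIs and 89.9% of the Slc11a1 UMIs. They held 34.1% of the Slc40a1 UMIs, against 62.1% in neutrophils.

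**Figure D1:**
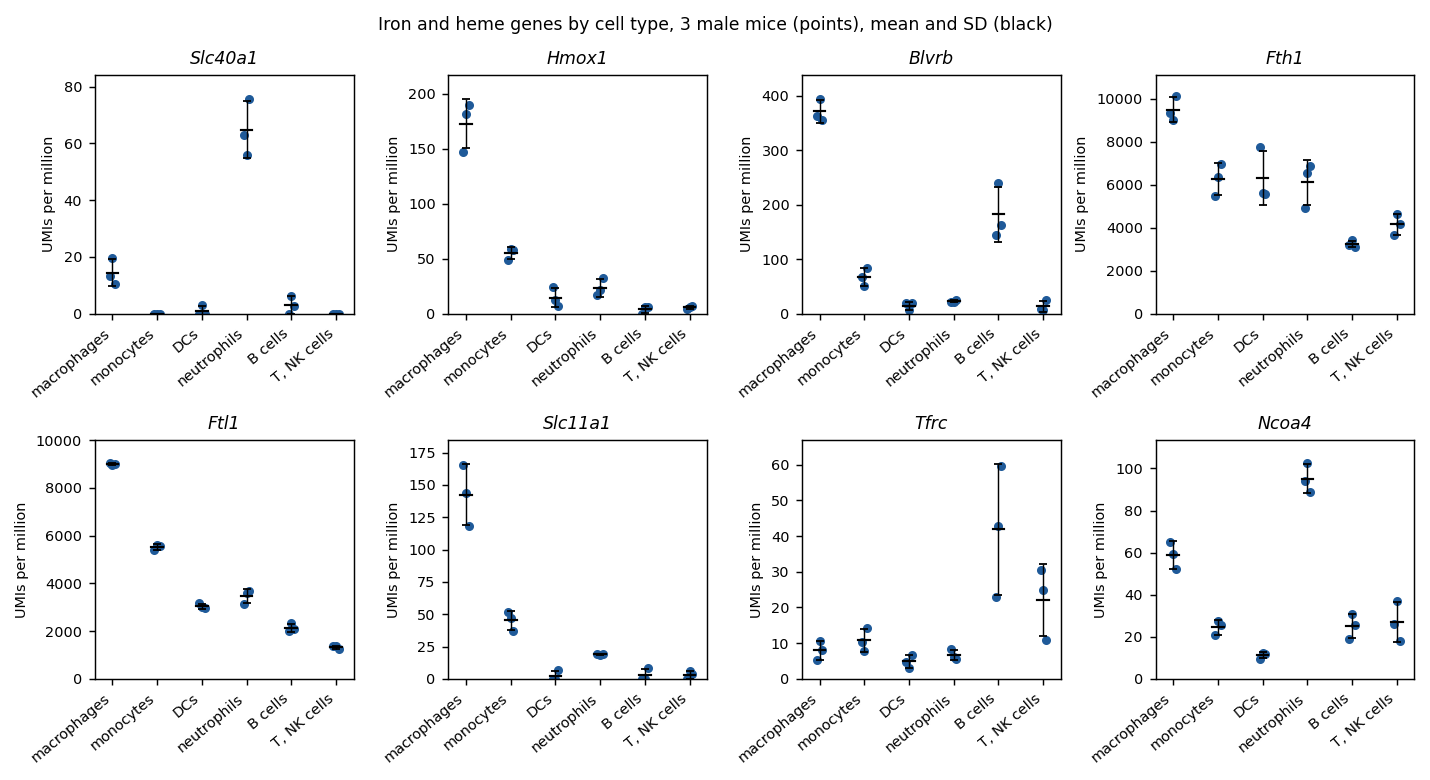
Level of each gene in CPM (y axis, from 0) by cell type (x axis) in the 3 male mice, where points are mice, the long bar is the mean and the whiskers are the SD. Macrophages are highest for Hmox1, Blvrb, Fth1, Ftl1 and Slc11a1, neutrophils for Slc40a1 (64.8 CPM) and Ncoa4 (95.1 CPM), and B cells for Tfrc (41.8 CPM).

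Compared with monocytes, 7 of the 8 genes were higher in macrophages and Tfrc was not called (of 6250 genes tested, 38.5% were called, 20% as higher). Compared with DCs the count was also 7 higher (32.0% of genes called, 16.5% as higher), and with T and NK cells 7 higher (48.4% called, 26.9% as higher), again without Tfrc. Compared with B cells, 7 were higher and Tfrc was lower (57.8% called, 31.9% as higher and 26.0% as lower), and compared with neutrophils, 4 were higher and 2 lower (68.5% called, 36.2% as higher and 32.3% as lower). The calls against neutrophils and B cells thus stand on a background where most genes were called. The median log2 fold change over the 8 genes was 1.82 against monocytes, 3.1 against DCs, 0.37 against neutrophils, 2.43 against B cells and 4.21 against T and NK cells. The last was 2.49 with Slc40a1, which had no UMI in T and NK cells, set to a floor of 3 UMIs there. Over all genes tested these medians lay between 0.0002 and 0.092.

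RNA of the heme breakdown genes Hmox1 and Blvrb was highest in macrophages, and heme breakdown itself was not measured. Hmox1 (chr8:75093621-75100589), the inducible heme oxygenase, was at 147, 182 and 190 CPM in the macrophages of mouse 1, 2 and 3 and at 49.0, 59.1 and 58.2 CPM in monocytes. The macrophages of every mouse were above the monocytes of every mouse, with a log2 fold change of 2.02 ± 0.23 (SE, adjusted p = 1.1e-07). Neutrophils followed with 23.8 ± 8.19 CPM and DCs with 14.4 ± 8.81 CPM, whose ranges overlapped. T and NK cells (5.92 CPM) and B cells (3.94 CPM) were lowest, with at most 2 UMIs per mouse, and overlapped with each other. Hmox1 was uneven between single macrophages. Of the 1484 macrophages, 535 had no Hmox1 UMI, the median cell had 1, and the top 5% of cells held 29.3% of the UMIs. The study reports signs of genes induced by tissue digestion, particularly in macrophages, and the part of digestion in these Hmox1 levels was not tested.

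Blvrb (chr7:27447978-27466144), a flavin and biliverdin reductase, was at 364, 395 and 356 CPM in macrophages. It was the only one of the 5 genes led by macrophages that had B cells in the second place, at 145, 239 and 162 CPM. Macrophages were higher than B cells in every mouse (log2 fold change 1.69 ± 0.20 SE, adjusted p = 1.1e-07), and B cells were in turn above monocytes (67.3 ± 16.3 CPM) with no overlap. Neutrophils were at 22.5 ± 2.00 CPM, and DCs (14.7 ± 7.35 CPM) and T and NK cells (13.4 ± 10.3 CPM) overlapped in range. At least 50.7% of the B cells of each mouse had a Blvrb UMI, against 3.23% to 11.3% of T and NK cells, with 3407 UMIs in the median B cell and 4577 in the median T or NK cell. Thinned to 2000 UMIs the shares were 32.2% ± 8.71 and 0.629% ± 1.09. The part of free RNA in these shares was not tested.

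Ferritin RNA was highest in macrophages by CPM when each type was taken as a whole. Fth1 (chr19:9980598-9985098), the heavy chain that oxidizes iron for storage, was at 9362, 8999 and 10150 CPM in macrophages and between 4921 and 7763 CPM in the monocytes, DCs and neutrophils of single mice, whose ranges overlapped one another. Ftl1 (chr7:45457944-45459884), the light chain, was at 9055, 8946 and 9013 CPM in macrophages, 5518 ± 121 in monocytes, 3472 ± 305 in neutrophils, 3041 ± 117 in DCs, 2136 ± 168 in B cells and 1337 ± 62.7 in T and NK cells. The macrophages of every mouse had more of both chains than any other whole type by this scale. Neutrophils were not of 1 level, and the 147 of them with under 0.05% of UMIs in the granule genes Camp and Ngp had 19762 ± 4264 CPM of Fth1 and 9720 ± 110 CPM of Ftl1, above macrophages, while a further 108 with under 0.5% had 16295 ± 2562 CPM of Fth1. Whether Fth1 differed between macrophages and neutrophils depended on the scale. The log2 fold change was −0.01 ± 0.15 (SE, adjusted p = 0.98) with TMM scaling, 0.64 (adjusted p = 2.8e-04) with library totals alone and −0.90 (adjusted p = 2.8e-09) with every cell thinned to 2000 UMIs. For Ftl1 it was 0.74 ± 0.11 (adjusted p = 4.0e-06) with TMM scaling, 1.37 with library totals and −0.005 (adjusted p = 0.98) in thinned cells. TMM factors of neutrophils were 0.533 to 0.607 and those of macrophages 0.883 to 0.933, and library totals moved the median of all genes in this comparison from 0.09 to 0.75. Both ferritin genes have processed pseudogenes. Ftl1-ps1 held 0.637% to 0.997% as many UMIs as Ftl1 in each group of cells. How reads that match more than 1 copy were divided is not shown by these counts, so both ferritin levels are uncertain by an amount not measured here.

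Ncoa4 (chr14:32159865-32179855), the receptor that carries ferritin to the lysosome for release of its iron, was highest by CPM in neutrophils as a whole type, at 93.9, 103 and 88.9 CPM. In macrophages it was at 65.2, 59.3 and 52.1 CPM, below the neutrophils of every mouse, with a log2 fold change of −1.34 ± 0.14 (SE, adjusted p = 1.5e-08). It stayed lower with library totals (−0.69, adjusted p = 1.6e-04). T and NK cells (27.1 CPM), B cells (25.1 CPM) and monocytes (24.6 CPM) were lower than macrophages and overlapped, and DCs had 11.3 ± 1.48 CPM. In the 3 female mice the differences of macrophages from monocytes (0.71, adjusted p = 0.29) and from B cells (0.95, adjusted p = 0.061) were not called.

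Slc40a1 (chr1:45908068-45926523), which codes for ferroportin, was detected almost only in neutrophils and macrophages. Neutrophils had 62.9, 55.9 and 75.7 CPM and macrophages 13.3, 19.6 and 10.4 CPM, without overlap (log2 fold change −2.89 ± 0.26 SE, adjusted p = 3.6e-09, and −2.23 with library totals). Of the neutrophils, 40.5% had a Slc40a1 UMI (95% Clopper-Pearson interval 36.4% to 44.7%), against 7.35% of the macrophages (6.07% to 8.79%), with 6492 and 8621.5 UMIs in the median cell. When cells were thinned to 2000 UMIs, which left out 30 macrophages and 31 neutrophils, the shares were 14.6% ± 2.82 and 2.54% ± 1.29. Intervals cover counting error only.

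Slc40a1 UMIs were found in 0 of 139 monocytes, whose median cell held 10729 UMIs, which allows a share of up to 2.16%, and in 0 of 123 T and NK cells, which allows up to 2.44%. These limits are on cells with a UMI, not on cells that express the gene. With monocytes set to a floor of 3 UMIs over the group, macrophages were 7.26-fold higher than monocytes and neutrophils 37.7-fold higher. The counting intervals of these ratios start lower, at 5.84 and 30.5. B cells held 2 UMIs (macrophages over B cells 5.21-fold, counting interval 1.42 to 43.4) and DCs 1 UMI (15.1-fold, 2.67 to 598). The part of free RNA in the Slc40a1 UMIs was not tested.

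Iron uptake genes differed from each other in pattern. Slc11a1 (chr1:74375195-74386062), the metal transporter of the phagosome, was at 165, 143 and 118 CPM in macrophages and at 51.6, 47.3 and 36.7 CPM in monocytes, without overlap (log2 fold change 2.10 ± 0.25 SE, adjusted p = 2.6e-07). Neutrophils had 19.1 ± 0.454 CPM and the other types at most 8.53 CPM in any mouse. Tfrc (chr16:32608920-32632794), the transferrin receptor, was low in macrophages (5.44, 10.6 and 8.0 CPM) and higher in B cells (22.9, 42.9 and 59.7 CPM), with a log2 fold change of −1.75 ± 0.36 (SE, adjusted p = 2.4e-04). T and NK cells had 22.0 ± 10.1 CPM and overlapped with B cells, and monocytes (10.8 CPM), neutrophils (6.73 CPM) and DCs (4.89 CPM) were within the range of 3.1 to 14.3 CPM. The differences of macrophages from monocytes, DCs, neutrophils and T and NK cells in Tfrc were not called, with intervals that reach from −1.78 to 1.87.

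A wider list of 58 iron and heme genes, of which 36 were tested here, had more genes called higher than lower in macrophages in each of the 5 comparisons. Without the 8, 28 genes remained, of which 11 were higher and 2 lower in macrophages than in monocytes, 11 and 1 against DCs, 14 and 7 against neutrophils, 11 and 1 against B cells, and 14 and 1 against T and NK cells. The shares of all genes called, given above, are the background to these counts, and that against neutrophils (36.2% higher and 32.3% lower) is high. The median of the 36 was 0.60, 0.64, 0.54, 1.02 and 1.27 in that order. Cd163 itself was higher in macrophages by a log2 fold change of 6.03 over monocytes (adjusted p = 7.9e-11) and 2.82 over DCs (adjusted p = 2.8e-07). Slco2b1, a heme transporter of macrophages, was higher by 5.32 over neutrophils (adjusted p = 2.6e-11), and Trf, which codes for the iron carrier transferrin, by 3.35 (adjusted p = 2.6e-12). The genes lower in macrophages than in neutrophils were the iron-binding granule protein Ltf (−9.71), the siderophore binder Lcn2 (−9.06), the hemoglobin binder Hp (−8.23), Alas1 of heme synthesis (−2.57), the iron sensor Fbxl5 (−1.93), and the mitochondrial iron carriers Slc25a28 (−0.82) and Slc25a37 (−0.71).

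Within macrophages, the cells were then divided by UMIs of Fcrls, an Fc receptor-like gene, and Ccr2, the receptor that brings monocytes from the blood. Fcrls without Ccr2 was found in 678 cells, both in 583, Ccr2 without Fcrls in 156 and neither in 67. From Ccr2-only to Fcrls-only cells, Slc40a1, Blvrb, Ncoa4 and Ftl1 rose and Fth1 fell slightly. Of the 8 genes, 7 passed the filter on low counts (Tfrc did not), and 5 were called, 4 higher and 1 lower (of 6276 genes, 8.95% were called, 3.79% as higher and 5.16% as lower). The median of the 7 was 0.61, beside 0.02 over all genes tested.

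**Figure D2:**
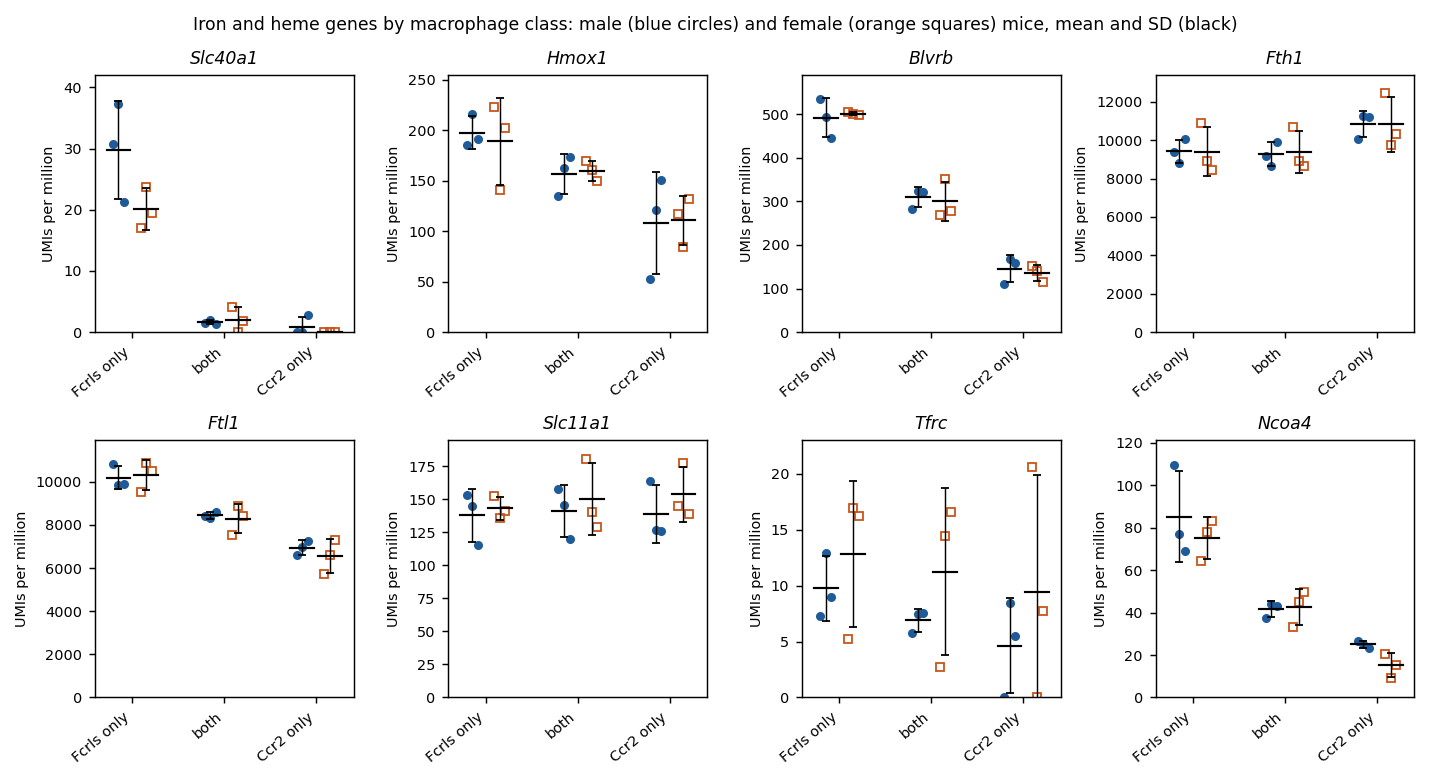
Level of each gene in CPM (y axis, from 0) in macrophages with UMIs of Fcrls only, both genes or Ccr2 only (x axis), for 3 male (blue circles) and 3 female mice (orange squares), with mean and SD in black. Slc40a1 is at 21.3 to 37.3 CPM in the Fcrls-only cells of the male mice and at most 2.74 CPM in their other cells shown, and Blvrb, Ftl1 and Ncoa4 step down from left to right in both sexes.

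Slc40a1 had the widest difference. It was at 30.7, 37.3 and 21.3 CPM in Fcrls-only cells, 1.43, 2.04 and 1.39 CPM in cells with both, and 0, 0 and 2.74 CPM in Ccr2-only cells. Fcrls-only cells, which were 45.7% of macrophages, thus held 164 of the 180 macrophage UMIs (91.1%), and every mouse had more in Fcrls-only cells than any mouse had in the other classes shown. The 67 cells with neither gene held 5 of these UMIs, at 0, 8.22 and 17.8 CPM in mouse 1, 2 and 3, and were not tested. The log2 fold change was 4.05 ± 0.67 (SE) against Ccr2-only cells (adjusted p = 7.6e-04) and 4.10 ± 0.42 against cells with both (adjusted p = 4.9e-05). Against cells with both, 3 of the genes were called, all higher (1.39% of genes called, 0.749% as higher). Because Ccr2-only cells held 2 UMIs, the pooled ratio to them was 17.6 with a counting interval of 4.78 to 146, and that to cells with both, which held 9 UMIs, was 17.6 with an interval of 9.06 to 39.2.

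In Fcrls-only cells neutrophil markers made up 0.0962%, 0.107% and 0.352% of UMIs, and Slc40a1 at the ratio it has to these markers in the neutrophils of the same mouse would come to 0.138, 0.141 and 0.595 CPM. The measured levels were 30.7, 37.3 and 21.3 CPM. The ratio is over the neutrophils of a mouse as a whole, and the part of neutrophil or free RNA in the measured levels was not tested. With the number of Fcrls UMIs in the cell, Slc40a1 went from 4.11 CPM at 0 and 1.71 CPM at 1 to 2 UMIs, through 9.75 CPM at 3 to 5 and 14.4 CPM at 6 to 10, to 26.2 CPM at 11 or more, over the pooled cells of the 3 male mice. The cells at 0 were those with Ccr2 only and those with neither gene. The median cell held 7813, 7940, 8233, 8967 and 10350 UMIs in these groups, in that order, and the part of depth was not tested.

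Blvrb and Ncoa4 changed in steps over the classes. Blvrb was at 535, 494 and 446 CPM in Fcrls-only cells, 282, 325 and 322 CPM in cells with both, and 111, 169 and 158 CPM in Ccr2-only cells. The classes did not overlap, and all 3 contrasts were called, with log2 fold changes of 1.60 ± 0.15 (SE, adjusted p = 2.8e-06), 0.61 ± 0.13 for Fcrls-only over both (adjusted p = 0.020) and 0.99 ± 0.15 for both over Ccr2-only (adjusted p = 0.0029), which made Blvrb the 1 gene of the 8 called in the last contrast (0.86% of genes called, 0.478% as higher; adjusted p = 0.054 without mouse 3). Ncoa4 was at 110, 77.1 and 69.0 CPM, then 37.3, 44.3 and 43.2 CPM, then 26.4, 25.3 and 23.3 CPM. Its log2 fold change was 1.63 ± 0.27 (SE, adjusted p = 6.7e-04) over Ccr2-only cells and 0.89 ± 0.17 over cells with both (adjusted p = 0.012), while the step from both to Ccr2-only was 0.74 (adjusted p = 0.35). Without mouse 1 or mouse 2, Slc40a1 alone was called between Fcrls-only cells and cells with both (17 of 8469 and 50 of 6276 genes called).

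The ferritin chains went in opposite directions. Ftl1 was at 10815, 9852 and 9918 CPM in Fcrls-only cells, 8427, 8302 and 8600 CPM in cells with both, and 6606, 6969 and 7265 CPM in Ccr2-only cells, again without overlap. Its log2 fold change between the outer classes was 0.45 ± 0.08 (SE, adjusted p = 0.0024). Fth1 was at 9380, 8835 and 10057 CPM in Fcrls-only cells and 10059, 11262 and 11221 CPM in Ccr2-only cells, lower in the Fcrls-only cells of each mouse (−0.31 ± 0.08 SE, adjusted p = 0.023). The Fth1 call was lost under 8 of 17 alternatives, among them the leave-out of mouse 2 (adjusted p = 0.34) or mouse 3 (0.062), library totals (0.12) and thinned cells (0.98). With the mouse as a block, both minus Ccr2-only also gave Fth1 (−0.29, adjusted p = 0.0032) and Ftl1 (0.22, adjusted p = 0.028), so 3 genes were called there in place of 1 (3.7% of genes called), and Fcrls-only minus both also gave Ftl1 (0.22, adjusted p = 0.014; 7.2% called).

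Hmox1 did not pass the threshold between the outer classes. It was at 186, 216 and 191 CPM in Fcrls-only cells, 135, 163 and 173 CPM in cells with both, and 52.9, 121 and 151 CPM in Ccr2-only cells. Fcrls-only cells were higher in each mouse, with a log2 fold change of 0.61 ± 0.20 (SE, adjusted p = 0.067). It was called under 6 of 17 alternatives, among them the mouse as a block (0.57, adjusted p = 0.015; 13.3% of genes called) and the leave-out of mouse 3 (0.99, adjusted p = 0.034). Beside this, the early-response genes that tissue digestion is known to induce made up 1.86% to 3.03% of UMIs in Fcrls-only cells and 1.46% to 1.69% in Ccr2-only cells, and their part in the Hmox1 values was not tested. The cells with neither gene were uneven: in mouse 3, 31 of them held 124 Hmox1 UMIs, of which 99 were in 3 cells and 45 in 1.

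Slc11a1 was at 153, 145 and 115 CPM in Fcrls-only cells, 158, 146 and 120 CPM in cells with both, and 164, 127 and 126 CPM in Ccr2-only cells. The classes overlapped throughout, and the log2 fold change between the outer ones was −0.09 with a 95% interval of −0.49 to 0.31 (adjusted p = 0.88). Tfrc was at 9.75 ± 2.89 CPM, 6.92 ± 1.03 CPM and 4.64 ± 4.28 CPM, the last from 7 UMIs, and was not tested. The median cell held 8521.5, 9080 and 7999.5 UMIs among Fcrls-only cells, cells with both and Ccr2-only cells.

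The female mice, whose cells are not in the matrix of 2668 cells, were compared in the same way. Slc40a1 was at 17.1, 23.8 and 19.5 CPM in their Fcrls-only cells, 4.14, 0 and 1.85 CPM in cells with both, and without a UMI in 55 Ccr2-only cells. With the Ccr2-only cells set to a floor of 3 UMIs, Fcrls-only cells were 2.52-fold higher, and the counting interval starts at 1.97. Blvrb stepped from 501 ± 4.08 through 300 ± 45.0 to 136 ± 18.1 CPM, and Ncoa4 from 75.3 ± 9.85 through 42.7 ± 8.63 to 15.1 ± 5.67 CPM. Between the outer classes, Slc40a1, Hmox1, Blvrb, Ftl1 and Ncoa4 were higher in Fcrls-only cells in 3 of 3 male and 3 of 3 female mice, and Fth1 was lower in 3 of 3 and 3 of 3. The female mice alone gave 3 calls in place of 5, in a fit where 311 of 5650 genes were called. Slc40a1 was below the filter on low counts and so untested, and Fth1 was tested and not called (−0.24, adjusted p = 0.41). The difference between the sexes itself was not called for any of the 8 genes (adjusted p of at least 0.997, with 0 of 6781 genes called in edgeR's interaction test and 0 of the 8 at an unadjusted p under 0.05), which does not show that the sexes were alike.

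Of the list of 58 iron and heme genes, which was chosen with earlier results of these data known, 36 were tested between the outer classes. Of these, 10 were called higher and 1 lower, with a median of 0.21. Over all 6276 genes, 3.79% were called higher and 5.16% lower, with a median of 0.02. Without the 8, 29 genes remained, with 6 higher and 0 lower. Among the 6 was Cd163, which the study had already reported as high in the Fcrls-expressing cluster of these same cells. Its call is thus no independent result. Blvra, the other biliverdin reductase of the list, was not among those called. The 6 beyond the 8 genes were all higher in Fcrls-only cells: the ferroxidase Cp, which works with ferroportin (1.27, adjusted p = 0.0041), Cd163 (1.56, adjusted p = 1.8e-05), Spic, a transcription factor of macrophages that recycle red cells (2.42, adjusted p = 0.037), Slco2b1 (0.66, adjusted p = 0.024), Trf (0.55, adjusted p = 0.011) and Hfe, a regulator of iron sensing (1.08, adjusted p = 2.6e-04).

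Macrophages were then divided by Cd163 itself, with at least 1 Cd163 UMI in 904 cells and none in 580. Of the 8 genes, Blvrb alone was called, higher in cells with Cd163 (of 8447 genes, 0.343% were called, 0.142% as higher). It was at 426, 462 and 405 CPM with Cd163 and 238, 298 and 264 CPM without, without overlap (log2 fold change 0.64 ± 0.12 SE, adjusted p = 0.038). The call was lost without any 1 of the 3 mice (adjusted p of 0.52, 0.056 and 0.097 without mouse 1, 2 and 3), while the log2 fold change was 0.57, 0.66 and 0.67. Slc40a1 was at 17.2, 25.4 and 14.4 CPM with and 5.46, 11.3 and 2.91 CPM without Cd163, also apart (1.55 ± 0.43 SE, adjusted p = 0.24).

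Taking the mouse as a block, which sets both kinds of cell of a mouse against each other, 5 of the 8 were called (4.13% of genes called). Slc40a1 (1.59, adjusted p = 0.0048), Blvrb (0.63, adjusted p = 1.5e-04), Ncoa4 (0.62, adjusted p = 0.0098) and Ftl1 (0.21, adjusted p = 0.0039) were higher in cells with Cd163, and Fth1 was lower (−0.18, adjusted p = 0.0052). Their means with and without Cd163 were 67.0 and 45.3 CPM for Ncoa4, 9556 and 8013 CPM for Ftl1, and 9163 and 10092 CPM for Fth1. Hmox1 (187 and 147 CPM), Slc11a1 (140 and 146 CPM) and Tfrc (9.99 and 4.64 CPM) were called in neither fit. Cells with Cd163 were also somewhat deeper, with 8920 against 8055.5 UMIs in the median cell, and the part of depth in these values was not tested. In thinned cells, 0 of the 8 were called (7 of 4033 genes called) and Slc40a1 and Tfrc fell below the filter. The Cd163 groups were drawn again there, and after thinning only 28.9% ± 1.77 of macrophages had a Cd163 UMI. That fit thus cannot separate depth from lost detection of Cd163.

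**Figure D3:**
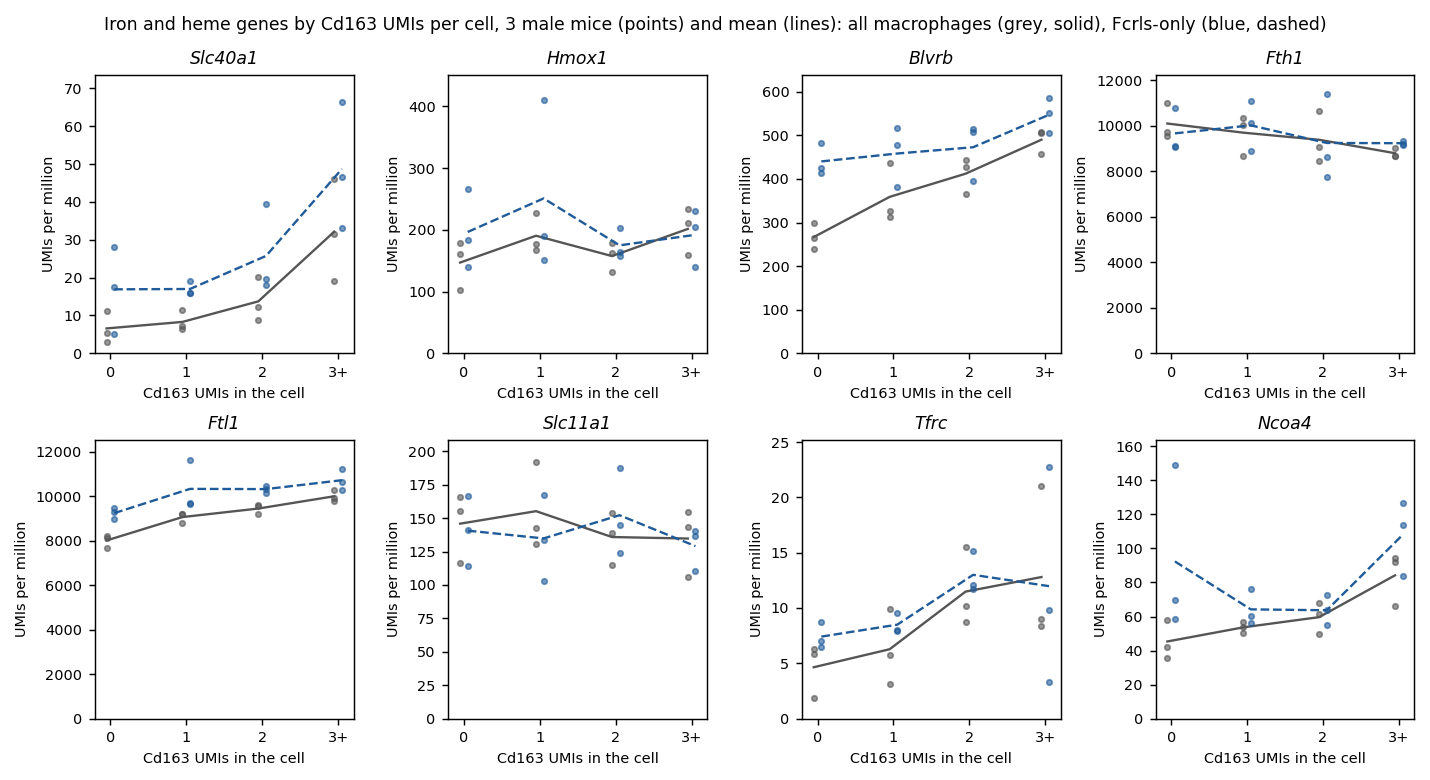
Level of each gene in CPM (y axis, from 0) by the number of Cd163 UMIs in the cell (x axis: 0, 1, 2, or 3 and more), for all macrophages (grey, solid line) and Fcrls-only macrophages (blue, dashed line), where points are the 3 male mice and lines their mean. Slc40a1 goes from 6.55 to 32.1 CPM and Blvrb from 267 to 490 CPM in all macrophages, and Slc11a1 stays between 135 and 155 CPM.

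Since Cd163 also differs between the classes, the comparison was repeated within Fcrls-only cells, 497 with and 181 without a Cd163 UMI. None of the 7 genes that passed the filter was called by edgeR or by DESeq2 (0.0173% of 5782 genes were called by edgeR, which is Cd163 alone, higher by construction), nor with the mouse as a block (0.242% called). Of these 7 genes, at an unadjusted p under 0.05, Slc40a1 alone passed in edgeR, Slc40a1 and Ftl1 with the block, and none in DESeq2. Genes outside the 7 also passed in edgeR, among them Nop58 (unadjusted p = 0.0032) and Nrp2 (0.0072), beside 0.036 for Slc40a1. The share of all 5782 genes under this threshold is not given, so these passes do not single out Slc40a1 or Ftl1. Slc40a1 was at 33.3, 41.2 and 26.2 CPM with and 17.5, 27.9 and 5.18 CPM without Cd163. It was higher in each mouse, but the values overlapped between mice (log2 fold change 1.07, 95% interval 0.08 to 2.05). Blvrb was at 509 and 440 CPM on average (0.22, interval −0.08 to 0.52), and Ncoa4 at 84.7 and 92.4 CPM (0.14, interval −0.43 to 0.70). In cells with both Fcrls and Ccr2, Slc40a1 was at 1.02 CPM with and 2.34 CPM without Cd163. All 583 cells of this class held 9 Slc40a1 UMIs, too few to read a direction from.

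**Figure D4:**
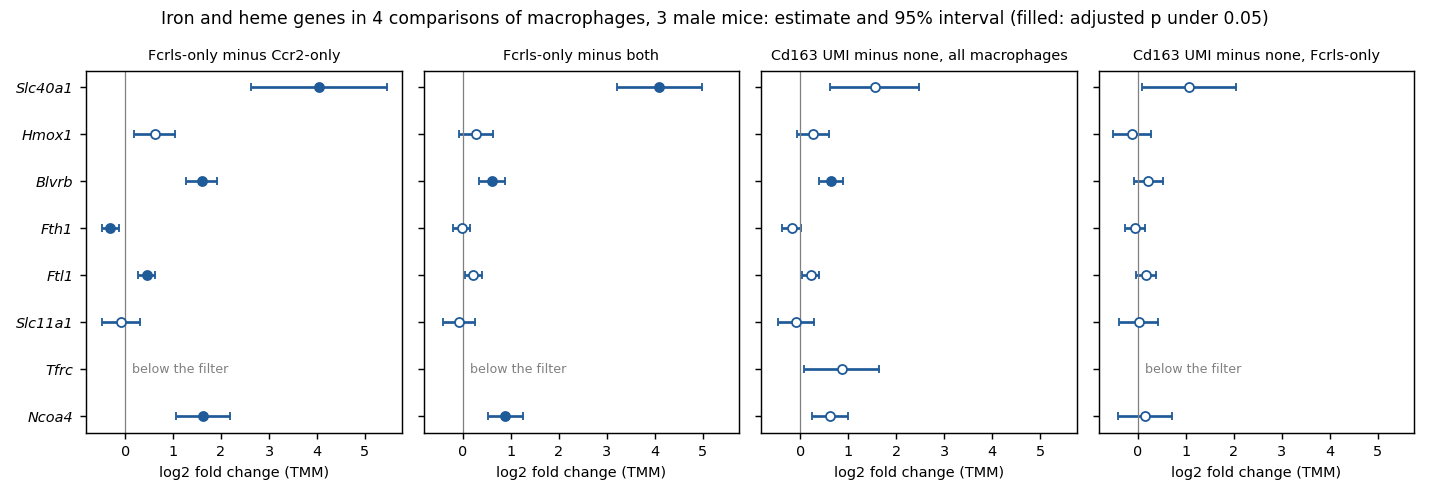
Log2 fold change with TMM scaling (x axis) and its 95% interval for each gene in 4 comparisons of macrophages of the 3 male mice, where filled points have an adjusted p under 0.05 and Tfrc was below the filter in 3 comparisons. Filled points number 5, 3, 1 and 0 from left to right.

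By number of Cd163 UMIs, the difference in Slc40a1 lay mainly at the upper end. In Fcrls-only cells the mean was 16.9 CPM at 0, 17.0 at 1, 25.7 at 2 and 48.7 at 3 or more Cd163 UMIs, with 46.6, 66.3 and 33.1 CPM in the last group. That group lay above the cells without Cd163 (5.18 to 27.9 CPM) in these mice. In mouse 3, neutrophil markers made up 0.613% of the UMIs of this group, and their ratio to Slc40a1 in neutrophils would give 1.03 CPM. The part of neutrophil or free RNA in these levels was not tested. Blvrb in Fcrls-only cells was at 440, 458, 473 and 547 CPM over the same groups, and Ncoa4 at 92.4, 64.2, 63.7 and 108 CPM, without a steady order. In female Fcrls-only cells with 3 or more Cd163 UMIs, Slc40a1 was at 23.0, 32.4 and 36.5 CPM, and without Cd163 at 19.9, 8.25 and 17.8 CPM. All female Fcrls-only cells with a Cd163 UMI had a mean of 21.2 CPM, against 15.3 CPM without, and were higher in 2 of 3 mice. The pooled ratio was 1.25, with a counting interval of 0.62 to 2.73 that includes no difference. The median male Fcrls-only cell held 7790, 7769, 8939.5 and 9279.5 UMIs at 0, 1, 2 and 3 or more Cd163 UMIs, and the part of depth was not tested. All of these groups were described without a test.

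Per cell, the size of the relation depended on the scaling. Over macrophages of a mouse thinned to 2000 UMIs, Spearman's rho with Cd163 was 0.052 to 0.275 for Slc40a1, 0.083 to 0.147 for Blvrb, 0.007 to 0.140 for Ftl1, −0.011 to 0.087 for Ncoa4, −0.030 to 0.105 for Hmox1, −0.036 to 0.036 for Slc11a1 and −0.150 to −0.074 for Fth1 over the 3 male mice. Fcrls, for comparison, had 0.215 to 0.242. Over the same cells without thinning, with each gene as a share of the cell's UMIs, rho was 0.278 to 0.383 for Blvrb, 0.107 to 0.255 for Ftl1, 0.136 to 0.221 for Ncoa4, 0.145 to 0.185 for Slc40a1, 0.046 to 0.117 for Hmox1, −0.021 to 0.045 for Slc11a1 and −0.163 to −0.137 for Fth1, and 0.344 to 0.381 for Fcrls. Within Fcrls-only cells the unthinned range for Blvrb was 0.108 to 0.183 and that for Slc40a1 0.134 to 0.186. Thinned, the ranges in this class were 0.019 to 0.078 for Blvrb and 0.044 to 0.344 for Slc40a1. The cells of a mouse share its library and its makeup of classes, and weak correlations of sparse counts are no finding. Among the 109 macrophages with a Slc40a1 UMI, 81.7% also had a Cd163 UMI (95% Clopper-Pearson interval 73.1% to 88.4%), against 59.3% of the other 1375 (56.6% to 61.9%), with a median of 9166 and 8584 UMIs per cell. In Fcrls-only cells the shares were 84.5% of 97 cells (75.8% to 91.1%) and 71.4% of 581 (67.6% to 75.1%), with a median of 9199 and 8442 UMIs per cell. These shares pool the cells of 3 mice, so the intervals cover counting error and not the spread between mice, and they are no test. The most Slc40a1 UMIs in a macrophage was 8. Of the other genes, 4 were summed over the pooled Fcrls-only cells with and without a Slc40a1 UMI, and each was higher in those with one, with Blvrb at 621 and 444 CPM, Ftl1 at 11844 and 9651 CPM, Ncoa4 at 119 and 68.2 CPM and Hmox1 at 231 and 192 CPM. In the female mice these were 684 and 474, 12230 and 9981, 98.7 and 72.2, and 232 and 188 CPM, over 37 and 260 cells, described without a test. Fth1, Slc11a1 and Tfrc were not summed in this way. The direction is thus known only for the 4 genes that were picked, not for the 8 as a set.

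The genes whose pattern was most like each of the 8 were taken by Pearson's r of log2(CPM + 1) over 18 sums, 6 cell types in 3 male mice, which share mice and depth. For Slc40a1 these were Fpr1 (0.94), Ncoa4 (0.93) and Grina (0.91), and for Ncoa4 they were Grina (0.95), Slc40a1 and Klf7. Hmox1 was most like Nfkbiz (0.95), Fcgr3 and Man1c1, Blvrb like Bank1 (0.91), Cd93 and Serinc3, and Slc11a1 like Snx24 (0.96), Cxcl3 and Cxcl2. Fth1 was most like Snap23 (0.96), Ccrl2 and Rnf130, Ftl1 like Pla2g7 (0.96), Milr1 and Lamp2, and Tfrc like Zranb2 (0.91), Smc3 and Smarca5. Over the same sums, Cd163 had an r of 0.30 with Slc40a1 and 0.63 with Ftl1.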

How the data were processed

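The authors deposited raw UMI counts, not normalized, in a matrix of 2668 cells. They had kept cells in Seurat for a gene number between 200 and 5000 and a mitochondrial share below 5%. The larger matrix was, per the file headers, made by Cell Ranger 3.1.0 (mm10 in the submitters' processing notes) and holds 4395 barcodes with 6 hashtags. Both share 2668 barcodes, and 0 of their common entries differed. HTODemux (Seurat 5.3.0, quantile 0.99) on the larger matrix, followed by the authors' filters, gave exactly these 2668 male cells and 1073 female cells. It left out 269 doublets and 101 negatives of 4111 barcodes. Scrublet marked 10 male cells, 8 of them macrophages, which were kept and left out in an alternative. The study's text gives 3 mice, and each hashtag was taken as a mouse. Deposited sample accessions do not separate the mice.

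A cell was called a macrophage from its C1q share, with 11 male cells between 0.4% and 0.6%. Otherwise it was a neutrophil when neutrophil markers made up at least 5% of its UMIs, with 30 cells between 3% and 8%, or took the type of which most markers, and at least 3, were detected. The 8 genes, the 3 marker genes Cd163, Fcrls and Ccr2, called genes of the pathway list and the 3 most alike genes per member are named. The members, lists and gates were chosen with earlier results of these data known.

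UMIs were summed per mouse and group and tested with edgeR 4.0.16 (quasi-likelihood test, TMM, filterByExpr, Benjamini-Hochberg over all genes tested; R 4.3.3). The classes, and the 6 cell types, shared 1 estimate of the spread. Cells of the same hashtag come from the same animal, so the mouse pairs them. The same-mouse correlation of deviations from group means had a median of 0.104 for the classes, 0.269 and 0.132 for the Cd163 comparisons and 0.029 for the cell types, and the mouse was a block in an alternative. Tested on simulated data, the test recovered 66%, 70%, 75% and 67% of genes changed 2-fold and 100%, 100%, 100% and 94% of those changed 4-fold in the outer classes, the Cd163 comparisons in all and in Fcrls-only macrophages, and macrophages against monocytes. Of the genes left unchanged, 6, 8, 5 and 5 were called. The simulated counts had the same spread for all genes and no difference between mice. These shares thus cannot be carried over to single genes with few UMIs, such as Slc40a1 and Tfrc. DESeq2 1.42.0, other scaling, no filter, other gates, left-out mice, female mice, 6 mice and thinned cells were alternatives, and library totals and the leave-out of cells with hemoglobin UMIs were added after seeing the data. For the fits on thinned cells, types, classes and Cd163 groups were drawn again from the thinned counts, and TMM scaling was kept. The shares and correlations in thinned cells kept the types and classes of the full counts. Sums held 114132 to 7873268 UMIs of tested cells, and Tfrc and Slc40a1, with few UMIs, are the least precise.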

Additional observations from a re-analysis of the deposited data

How the results depend on the processing

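Of 1124 alternative values for single genes, 1037 kept direction and side of the threshold, 26 lost the call, 22 gained it and 39 turned direction, and the cause was not tested. With the mouse as a replicate block, which pairs cells of the same animal, the count of called genes went from 1 to 3 for both minus Ccr2-only and from 1 to 5 for Cd163, and beside the added calls given in the report it changed no other call. In the outer classes 5 calls became 3 in female mice and 2 in thinned cells, and 4 to 5 without 1 mouse. For Fcrls-only minus both, 3 became 1 in female mice, 0 in thinned cells and 1 to 3 without 1 mouse. For both minus Ccr2-only, 1 became 3 with 6 mice, 0 in thinned cells and 0 to 1 without 1 mouse. For Cd163 in all macrophages, 1 became 3 without the filter and with 6 mice, and 0 in female mice, in thinned cells, with a C1q share of at least 1% and without any 1 mouse. Against B cells, 8 became 5 in female mice and in thinned cells, where fewer genes passed the filter. Library totals without scaling turned the split of all calls from 238 higher and 324 lower to 332 and 236 in the outer classes, from 2263 and 2017 to 3514 and 1192 against neutrophils, from 1247 and 1159 to 779 and 2274 against monocytes, from 1992 and 1622 to 1314 and 2875 against B cells and from 1683 and 1345 to 1149 and 2514 against T and NK cells. They moved the median of all genes to 0.13, 0.75, -0.38, -0.51 and -0.48, in that order.

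None of the values that turned direction was called in the main test except Ftl1 against neutrophils, -0.0047 in thinned cells. Fth1 against neutrophils was 0.64 with library totals, 0.051 without the filter, 0.0045 with the replicate block, -0.18 to 0.13 without 1 mouse (0.018 without mouse 2), 0.024 with a C1q share of at least 0.25%, 0.0068 without cells marked by Scrublet, 0.13 in female mice and 0.042 with 6 mice. Tfrc against neutrophils was 0.36 with library totals. Between the outer classes Slc11a1 was 0.013 with library totals and 0.14 in thinned cells. For Fcrls-only minus both, Fth1 was 0.024 with library totals and 0.078 in thinned cells, and Slc11a1 0.094 in thinned cells. For both minus Ccr2-only, Slc40a1 was 0.013 with library totals, 0.00069 without the filter, -0.67 to 3.84 without 1 mouse (3.84 without mouse 3) and 0.44 with 6 mice, and Slc11a1 was 0.044 with library totals, 0.046 without the filter, -0.096 to 0.048 without 1 mouse (0.0038 without mouse 1), 0.0072 with 6 mice, 0.045 in thinned cells and 0.049 without cells with a hemoglobin UMI. In Fcrls-only cells by Cd163, Hmox1 was -0.26 to 0.18 without 1 mouse, 0.22 in female mice, 0.026 with 6 mice, 0.25 in thinned cells and 0.38 in cells with both Fcrls and Ccr2, Ftl1 was -0.012 in thinned cells, and Slc11a1 was -0.015 with the replicate block, -0.016 without mouse 3, -0.011 with a C1q share of at least 1%, -0.19 in thinned cells, -0.018 with at least 2 Cd163 UMIs and -0.15 in cells with both Fcrls and Ccr2. Slc40a1 and Tfrc fell below the filter in the female-only fits and in thinned cells, where they gave no value.

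Counts of all called genes moved with the setting too. In the outer classes 562 became 311 in female mice, 868 with 6 mice, 161 in thinned cells, 339 with classes set by the larger UMI count and 300 to 331 without 1 mouse. For Fcrls-only minus both, 87 became 452 with the replicate block, 350 with 6 mice, 246 without the filter and 11 in thinned cells, with 17 without mouse 1 and 50 without mouse 2. For both minus Ccr2-only, 54 became 232 with the block, 131 with 6 mice, 164 without the filter, 31 in female mice and 5 in thinned cells, with 24 without mouse 1 and 9 without mouse 3. For Cd163 in all macrophages, 29 became 349 with the block, 93 with 6 mice, 200 without the filter, 46 with at least 2 Cd163 UMIs, 9 in female mice, 7 in thinned cells and 2 without mouse 1, and in Fcrls-only cells 1 became 14 with the block, 27 without the filter, 7 in cells with both genes, 3 without mouse 2, and 2 with 6 mice, without Scrublet-marked cells and with a C1q share of at least 0.25% or 1%. Against monocytes, DCs, neutrophils, B cells and T and NK cells, 2406, 1999, 4280, 3614 and 3028 became 1252, 1237, 2528, 2224 and 1785 in female mice and 763, 466, 1649, 1389 and 1170 in thinned cells, with 6914 against neutrophils without the filter, and 1473 against monocytes and 1270 against DCs without mouse 3.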

Other observations

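The iron genes also differed among neutrophils, which were divided, after the data were seen and with no test, by the share of the granule genes Camp and Ngp in their UMIs, a sign of immature cells. In the 298 neutrophils with a share of at least 0.5%, Fth1 was at 3200 ± 646 CPM (SD, n = 3 male mice) and Ftl1 at 2144 ± 274 CPM, and in the 147 with a share under 0.05% they were at 19762 ± 4264 and 9720 ± 110 CPM. The 108 cells in between had 16295 ± 2562 and 8122 ± 1059 CPM. The median cell held 11128, 3119 and 3807.5 UMIs in these groups, in that order, and the part of depth in the levels was not tested. Ncoa4 was at 103 ± 1.60 CPM in the first group and 67.2 ± 62.1 CPM in the second, which overlapped, and Slc40a1 at 58.6 ± 6.24 and 96.9 ± 34.1 CPM, without overlap. The mean Fth1 and Ftl1 levels of neutrophils in the report are thus means over cells of unlike levels. In 9 neutrophil precursors, Slc40a1 and Ncoa4 held 12 UMIs each (93.1 CPM over the pooled cells) and Hmox1 none.

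Among the 162 B cells, 36 had a UMI of the proliferation genes Mki67 or Top2a. Tfrc, which dividing cells are known to need for iron uptake, was at 64.6 ± 30.6 CPM in these and 26.4 ± 16.3 CPM in the other 126, from 22 and 12 UMIs, with overlap between mice. Blvrb was at 189 ± 114 and 188 ± 15.9 CPM. The 102 unassigned cells had Fth1 at 8965 ± 946 CPM, Blvrb at 120 ± 51.2 CPM and Slc40a1 at 4.18 ± 7.25 CPM, the last from 5 UMIs.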
